A study of Mus musculus with 31 samples.

Results

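The 10 genes described here act on Wnt signalling: the Wnt antagonists Dkk2, Dkk3, Sfrp1 and Sfrp2, the LGR receptors Lgr4, Lgr5 and Lgr6, the ligands Wnt5a and Wnt5b, and the feedback inhibitor Axin2. They were picked by symbol, with 1 transcript per symbol (the one with the highest total count), and make up 10 of the 24470 symbols in an exon count table of RNA-seq. Results on these same libraries were known when they were picked, so their levels are given as a description and carry no test. After a filter on low counts 8 were left for the model fit. Wnt5b and Axin2 were too low for it, with 17.0 and 36.5 counts over all 6 libraries.

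The cells were female mouse dermal fibroblasts of a CAST/Ei x 129/Sv/Jae cross, grown without treatment. WT cells were compared with 2 lines that lack Xist on the inactive X and keep a wild-type active X, XaWT XiΔXist (line 1) and XaWT XiΔXist #2 (line 2). RNA-seq of rRNA-depleted total RNA addressed how Xist bears on gene expression while X inactivation is maintained. Each group had 2 libraries, called biological replicates. Nothing in the labels says whether a line is 1 clone or whether cultures were separate, so p-values measure the spread between these libraries, which may be technical.

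Wnt ligands bind Frizzled receptors and their LRP co-receptors, which leads to stabilised β-catenin and to transcription through TCF and LEF factors. DKK proteins bind the LRP co-receptors, SFRP proteins bind the ligands themselves, and LGR receptors bind R-spondins, which raise the cell's sensitivity to Wnt by removing the ubiquitin ligases ZNRF3 and RNF43. Wnt5a acts mostly through the β-catenin-independent branch, by way of ROR receptors. In skin, fibroblasts are a source of Wnt ligands, antagonists and R-spondins, and the pathway is known for its part in hair follicle formation and in dermal patterning.

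The libraries held 3812307 to 7067518 exon counts, with fewer in replicate 1 than in replicate 2 of every group. Xist had 2505.0 and 2678.5 counts for WT, 3.5 and 2.0 for line 1 and 4.0 and 2.0 for line 2, in keeping with the labels. All 10 fibroblast markers were measured, with a summed level of 4815 to 5780 CPM (counts scaled to 1000000 per library, on TMM-scaled library sizes) in WT, 3652 to 5757 in line 1 and 5008 to 6163 in line 2. Dcn alone of them was called (adjusted p under 0.05 in edgeR), and it rose in line 1 (log2 fold change 2.19). Summed smooth muscle and pericyte markers were 652 to 701 CPM in WT, 314 to 401 in line 1 and 423 to 440 in line 2, and endothelial markers were 10.4 to 12.4, 3.24 to 3.69 and 5.08 to 6.54 CPM. Of the former, Acta2 (-1.25 on the log2 scale) and Cnn1 (-5.18) fell in line 1 and Cspg4 (-3.91) in line 2. Of the 3 endothelial markers with enough counts, 2 (Kdr and Erg) fell in both lines. Melanocyte and Schwann markers summed to 21.0 to 29.1 CPM in WT, 63.2 to 66.0 in line 1 and 15.0 to 19.1 in line 2, with Dct at 0 in every library. Their called members went opposite ways in line 1, Mitf at 2.39 and Ngfr at -3.55 on the log2 scale. Keratinocyte markers summed to 5.12 to 7.58 CPM in WT, 0.819 to 1.35 in line 1 and 2.54 to 5.57 in line 2, with Krt1 at 0 throughout. Trp63, the 1 of these 6 with enough counts, fell in line 1 (log2 fold change -3.03) and was not called in line 2. Lgr5 and Lgr6, which are also skin epithelium markers, were lower in both lines, while the keratinocyte sums of WT and line 2 overlapped. Leukocyte markers summed to 8.74 to 22.6 CPM and adipocyte markers to 12.4 to 40.0 CPM over all libraries. Of the leukocyte markers Lyz2 fell in line 1 (-1.91). The part of these markers in the results below was not tested, and in bulk RNA fewer cells of a type and less RNA per cell cannot be told apart.

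The 3 groups differed in which Wnt antagonist had the highest level. Among the members Dkk2 came first in WT, Dkk3 and the ligand Wnt5a in line 1, and Sfrp2 and Sfrp1 in line 2. Per kb of transcript, which lets genes be set side by side, the order of mean levels in WT was Dkk2 (30.5 CPM per kb), Dkk3 (14.1), Lgr6 (12.7), Wnt5a (11.04), Lgr4 (6.08), Sfrp1 (3.03), Sfrp2 (2.75) and Lgr5 (1.07). With SDs of 6.49, 2.20 and 3.47, Dkk3, Lgr6 and Wnt5a did not differ beyond their spread, nor did Sfrp1 and Sfrp2. In line 1, Wnt5a (28.7) and Dkk3 (28.0) came first, with SDs of 3.04 and 2.01, ahead of Dkk2 (4.21), Lgr4 (3.42) and Lgr6 (2.44), whose order lies within their SDs of 2.34, 0.603 and 1.13. Sfrp2 (0.577), Lgr5 (0.230) and Sfrp1 (0.201) were the lowest fitted members there. In line 2, Sfrp2 led at 46.6 ± 5.70 CPM per kb (SD, n = 2), followed by Sfrp1 (18.8 ± 8.66), Wnt5a (13.5 ± 4.99), Lgr4 (10.4 ± 1.49) and Dkk3 (4.67 ± 2.08). Sfrp1, Wnt5a and Lgr4 overlapped there within their SDs. Lgr6 (0.551), Dkk2 (0.371) and Lgr5 (0.235) ended the list of fitted members in line 2.

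**Figure D1:**
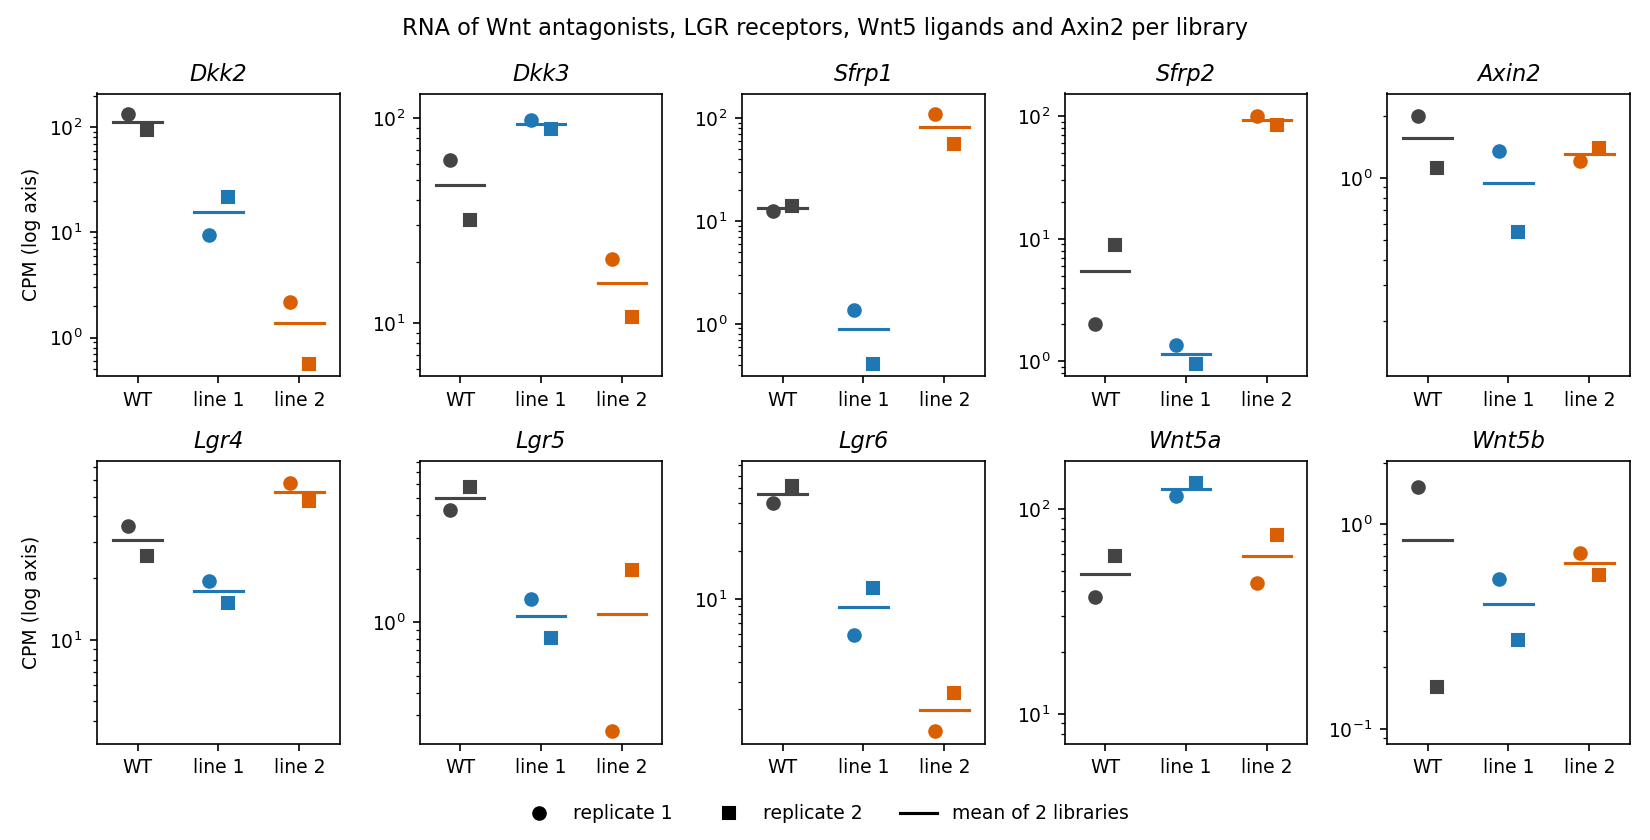
RNA level of each of the 10 genes in every library, in CPM on log axes whose range differs between panels; circles are replicate 1, squares replicate 2 and lines the mean of 2 libraries. Dkk2 and Lgr6 step down from WT to line 1 to line 2, while Sfrp1 and Sfrp2 are lowest in line 1 and highest in line 2.

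Dkk2 encodes a secreted protein that binds LRP co-receptors and mostly blocks Wnt signalling. It lies at chr3:132085292-132180304 on the plus strand (mm10; all coordinates here are on this build and 1-based). It had 525.5 and 582.5 counts for WT, 34.5 and 158.5 for line 1 and 8.5 and 3.5 for line 2. That made 133 and 93.3 CPM for WT, 9.46 and 21.7 for line 1, and 2.18 and 0.564 for line 2. No library of 1 group reached the range of another, so the 3 groups stood in steps. Its log2 fold change, from a quasi-likelihood fit of all 6 libraries in edgeR, was -2.80 (SE 0.456) in line 1 and -6.53 (SE 0.625) in line 2. Leaving out single libraries gave -3.57 (no line 1 replicate 2) to -2.38 in line 1. It gave -7.59 (no line 2 replicate 1) to -5.68 (no line 2 replicate 2) in line 2, where it rests on 8.5 and 3.5 counts.

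The region just before the start of Dkk2 is shown because this gene and Lgr6 were lower in both lines, while Sfrp2 was higher in line 2. It is the RefSeq window of 250 bases before the start (GRCm38.p6, the same build), chr3:132085042-132085291, plus strand, 5′ to 3′, with CG pairs in capitals.
Dkk2: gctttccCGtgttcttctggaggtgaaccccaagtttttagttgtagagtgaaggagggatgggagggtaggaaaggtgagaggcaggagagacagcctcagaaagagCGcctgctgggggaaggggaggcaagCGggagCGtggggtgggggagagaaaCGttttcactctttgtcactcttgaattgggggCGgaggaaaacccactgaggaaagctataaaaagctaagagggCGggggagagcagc
It holds 7 CG pairs, against a median of 6 over 32851 such windows, and a TATAAA whose first base lies at -32 from the start. That motif, searched on both strands and chosen after the windows were seen, occurs in 12.4% of all windows.

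Dkk3 is the divergent member of the DKK family and is not known to act on LRP co-receptors as the others do. The gene, at chr7:112116019-112159057 on the minus strand, stood at 62.7 and 31.8 CPM in the WT libraries, at 98.7 and 89.1 in those of line 1, and at 20.6 and 10.7 in those of line 2. The WT libraries lay far apart, although the groups did not overlap. Its log2 fold change was 1.00 (SE 0.384) in line 1 and -1.62 (SE 0.416) in line 2, on opposite sides of WT. Within replicate numbers the log2 ratio of CPM was 0.66 and 1.49 for line 1 and -1.60 and -1.57 in line 2. Together the 4 DKK genes summed to 44.8 ± 14.1 CPM per kb in WT, 32.2 ± 0.327 in line 1 and 5.13 ± 2.52 in line 2 (SD, n = 2). Dkk2 took 68.9% ± 4.73 of that level in WT, 13.0% ± 7.13 in line 1 and 6.54% ± 2.81 in line 2, and Dkk3 took 30.7%, 87.0% and 92.1%. The remaining members, Dkk1 and Dkk4, never exceeded 2.67% in a library.

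Sfrp1 and Sfrp2 encode secreted proteins whose Frizzled-like domain binds Wnt ligands. Both were lowest in line 1 and highest in line 2. Sfrp1, at chr8:23411502-23449632 on the plus strand, had 48.5 and 88.0 counts for WT, 5.0 and 2.5 for line 1 and 449.0 and 392.0 for line 2. In CPM this was 12.4 and 14.1 for WT, 1.35 and 0.409 for line 1, and 108.8 and 55.3 for line 2. The 3 groups did not overlap. The log2 fold change was -4.12 (SE 0.616) in line 1, and it was -4.96 or -3.28 when replicate 1 or replicate 2 of line 1 was left out. In line 2 it was 2.62 (SE 0.400). Between the lines the gap was 6.73 (SE 0.573) on the log2 scale, or 93.2-fold in mean CPM. With 5.0 and 2.5 counts in line 1, that gap was 7.56 when replicate 1 of line 1 was left out and 5.88 when its replicate 2 was.

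Sfrp2, at chr3:83766321-83774314 on the plus strand, had 8.0 and 55.5 counts for WT, 5.0 and 6.5 for line 1 and 418.0 and 603.5 for line 2. The WT libraries stood apart from each other, at 2.02 and 8.96 CPM, while those of line 1 (1.35 and 0.955) and line 2 (101 and 85.2) were close to each other. The log2 fold change in line 2 was 3.98 (SE 0.513), and 5.51 without WT replicate 2. In line 1 it was -2.39 (SE 0.733), and -0.85 without WT replicate 2, so that value rested on 1 WT library. Within replicate 1 the log2 ratio of line 1 to WT was -0.58 and within replicate 2 it was -3.23. Its upstream window, chr3:83766071-83766320 on the plus strand, is shown beside that of Dkk2 for the gene with the highest level in line 2.
Sfrp2: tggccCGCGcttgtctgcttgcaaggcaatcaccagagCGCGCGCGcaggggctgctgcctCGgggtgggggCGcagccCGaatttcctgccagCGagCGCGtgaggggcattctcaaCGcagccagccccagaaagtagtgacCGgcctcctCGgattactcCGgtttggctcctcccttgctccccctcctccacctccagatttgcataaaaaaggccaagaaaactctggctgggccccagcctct
It holds 16 CG pairs, which is the upper quartile over all windows.

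The summed level of the SFRP family followed the same course, though not each of its genes did. Sfrp1 and Sfrp2 are part of that sum, so this is no separate result. The 5 SFRP genes summed to 9.53 ± 1.87 CPM per kb in WT, 1.37 ± 0.508 in line 1 and 83.3 ± 25.4 in line 2 (SD, n = 2). Sfrp2 took 57.6% ± 10.7 of the family level in line 2, Sfrp1 22.0% ± 3.69 and Sfrp4, another Wnt-binding member, 20.3% ± 6.95. In WT the shares were 26.8% ± 20.5, 32.1% ± 3.42 and 30.1% ± 9.40, so no member led beyond the spread. Frzb, also of this family, held 10.2% ± 6.51 in WT and 0.078% in line 2, and Sfrp5 at most 1.62% in any library. The shares of line 1 rest on few counts.

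**Figure D2:**
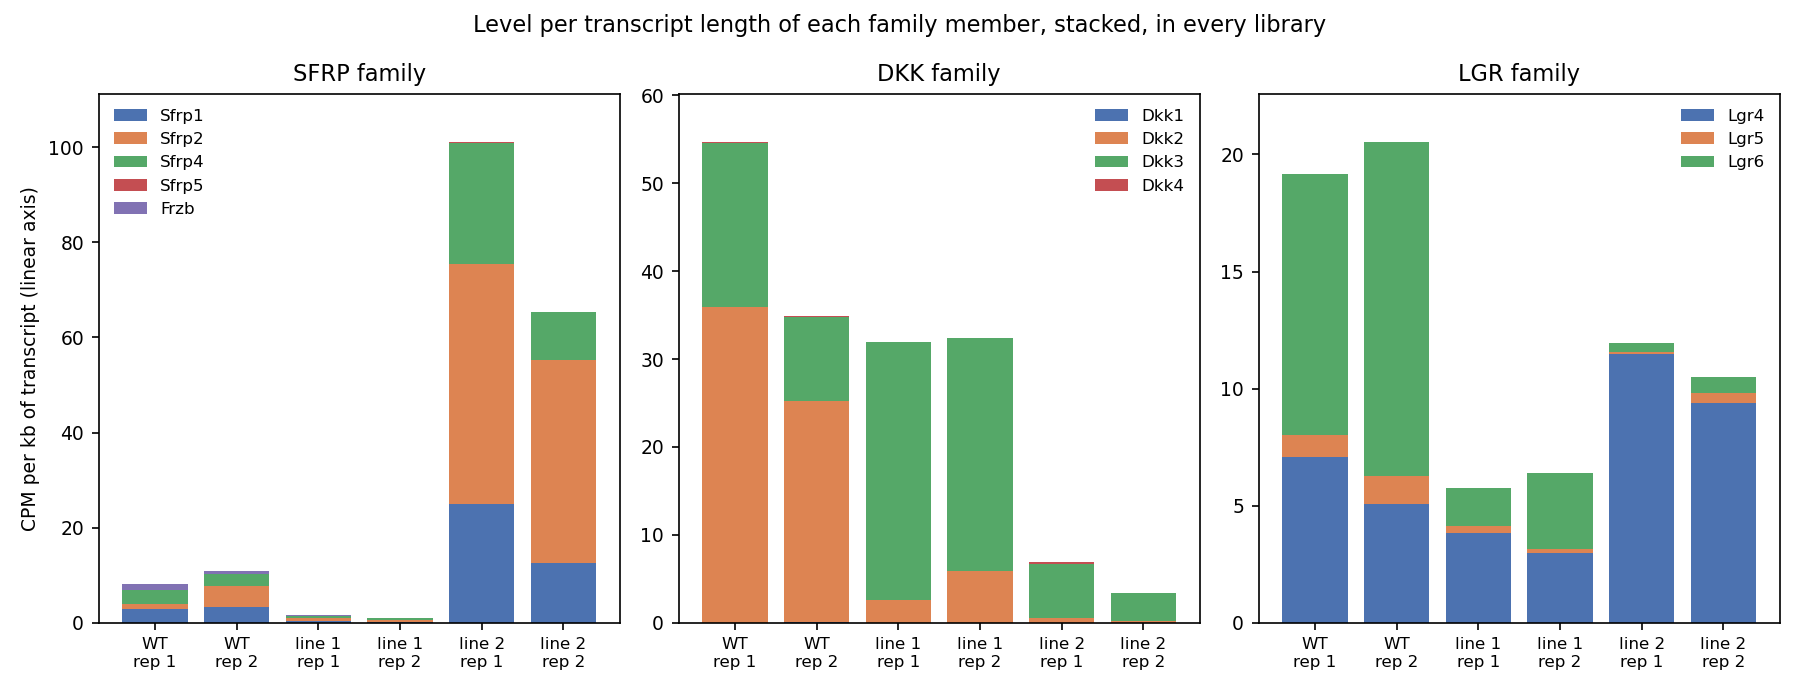
Stacked level of the members of 3 families in CPM per kb of transcript on linear axes that differ between panels, 1 bar per library. The SFRP bars are tallest in line 2 at 65.3 to 101 CPM per kb, the DKK bars hold a smaller Dkk2 share in both lines than in WT, and the LGR bars consist nearly only of Lgr4 in line 2.

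The LGR receptors split as well, with Lgr6 and Lgr4 going different ways in line 2. LGR4, LGR5 and LGR6 are the R-spondin receptors; Lgr5 and Lgr6 are also known as stem cell markers of the hair follicle and skin epithelium. Lgr6, at chr1:134986353-135105276 on the minus strand, stood at 40.4 and 51.7 CPM in the WT libraries, 5.95 and 11.7 in line 1, and 1.45 and 2.54 in line 2. Like Dkk2 it stood in 3 steps without overlap. The log2 fold change was -2.33 (SE 0.358) in line 1, with -2.96 without line 1 replicate 2, and -4.45 (SE 0.426) in line 2. In fold of mean CPM, Lgr6 was 5.21-fold lower in line 1 and 23.1-fold lower in line 2. Its upstream window, chr1:135105277-135105526, is given on the minus strand for comparison with Dkk2.
Lgr6: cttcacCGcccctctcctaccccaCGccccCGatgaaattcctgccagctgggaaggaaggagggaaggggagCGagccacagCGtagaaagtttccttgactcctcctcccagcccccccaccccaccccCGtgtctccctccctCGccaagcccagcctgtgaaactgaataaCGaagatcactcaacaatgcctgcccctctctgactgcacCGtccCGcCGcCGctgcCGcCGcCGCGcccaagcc
It holds 16 CG pairs, at a GC content of 65.2% against 55.6% for Dkk2, and no TATAAA.

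Lgr4, at chr2:109917647-110014257 on the plus strand, is the broadly expressed member of the 3. Its WT libraries had 35.9 and 25.6 CPM, against 19.5 and 15.2 for line 1 and 58.2 and 47.5 for line 2. The groups did not overlap, and the log2 fold changes were smaller than for Lgr6, at -0.83 (SE 0.248) in line 1 and 0.79 (SE 0.237) in line 2. Lgr5, at chr10:115450314-115587780 on the minus strand, was the lowest of them with 17.0 and 35.5 counts for WT, 5.0 and 6.0 for line 1 and 1.0 and 14.0 for line 2. Both lines lay below WT, at -2.29 (SE 0.672) and -1.99 (SE 0.637), and overlapped each other. The value of line 2 was -4.26 without line 2 replicate 2, the library with 14.0 counts. Summed over the 3 receptors the level was 19.9 ± 0.983 CPM per kb in WT, 6.09 ± 0.448 in line 1 and 11.2 ± 1.01 in line 2 (SD, n = 2). Lgr6 took 63.8% ± 7.91 of it in WT, 39.5% ± 15.7 in line 1 and 5.01% ± 2.34 in line 2, and Lgr4 30.8% ± 8.76, 56.7% ± 14.1 and 92.8% ± 4.85.

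Of the ligands, Wnt5a was the one with a sizeable level, and it was highest in line 1. Wnt5a, at chr14:28505473-28525515 on the plus strand, had 147.5 and 367.0 counts for WT, 427.0 and 983.0 for line 1 and 180.0 and 526.5 for line 2. This was 37.4 and 58.7 CPM for WT, 115 and 134 for line 1, and 43.6 and 74.3 for line 2. Line 1 stood above all other libraries, whereas WT and line 2 overlapped. The log2 fold change was 1.37 (SE 0.309) in line 1 and 0.30 (SE 0.310) in line 2. The latter lay between -0.15 and 0.67 when single libraries were left out. A second Wnt5a transcript in the table, inside the same span, had 111.5 to 845.0 counts per library, and reads shared by both cannot be assigned to one. Wnt5b, its paralog at chr6:119432531-119544347, reached at most 5.5 counts in any library and took 0.372% to 6.93% of the level of the pair. No difference in Wnt5b was detectable at this depth.

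Axin2 encodes a scaffold of the β-catenin destruction complex and is a widely used readout of β-catenin signalling, because the pathway induces it. The gene lies at chr11:108920349-108950781 on the plus strand. Its counts were 7.5 and 6.5 for WT, 4.5 and 3.5 for line 1 and 5.0 and 9.5 for line 2. These are 2.02 and 1.12 CPM, 1.35 and 0.546 CPM, and 1.21 and 1.41 CPM, and all 3 groups overlapped. Without the filter on low counts its log2 fold change was -0.82 (SE 0.614) in line 1 and -0.16 (SE 0.564) in line 2. At this depth no difference in Axin2 was detectable.

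**Figure D3:**
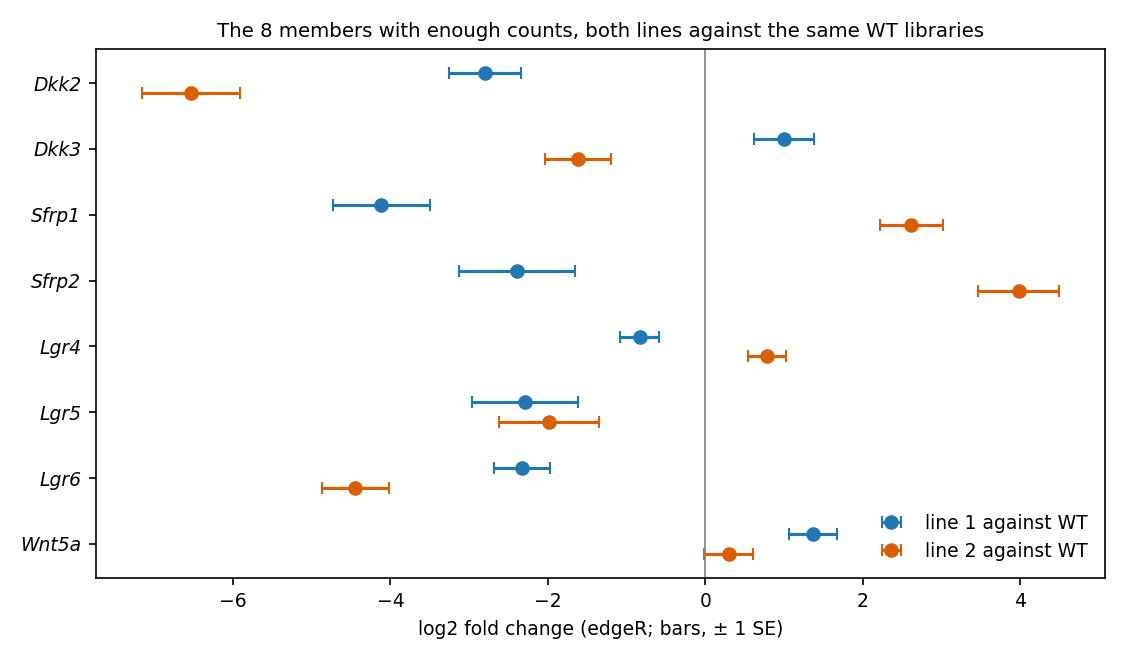
Log2 fold change of the 8 fitted genes in line 1 and line 2 against the same 2 WT libraries, with bars of 1 SE on either side. Dkk2, Lgr5 and Lgr6 lie left of 0 in both lines, and Dkk3, Sfrp1, Sfrp2 and Lgr4 lie on opposite sides.

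Counted against the fit over all genes, 4 of the 8 fitted members passed an adjusted p under 0.05 in line 1, where 14.3% of 12910 genes did. Higher was 1 (Wnt5a; 6.75% of all genes) and lower were 3 (Dkk2, Lgr6 and Sfrp1; 7.55%). In line 2 again 4 of 8 passed, against 3.58% of all genes, 2 higher (Sfrp1 and Sfrp2; 1.73%) and 2 lower (Dkk2 and Lgr6; 1.85%). Between line 2 and line 1, 6 passed, against 12.6%, 3 higher (6.87%) and 3 lower (5.76%) in line 2. The groups did not overlap for 8 members in line 1 (2 higher, 6 lower), where 51.0% of all genes did not (25.4% and 25.6%). They did not overlap for 7 in line 2 (3 higher, 4 lower), at 48.8% of all genes (24.9% and 23.9%), and for 7 between the lines (3 higher, 4 lower), at 48.3% (23.9% and 24.4%). Since the members were picked from these libraries, nothing is read from these counts. Both comparisons with WT share the same WT libraries. The median log2 fold change of the 8 was -2.31 in line 1 and -0.66 in line 2, against 0.01 over all genes in each.

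The promoter windows were also searched for CTTTGAT and CTTTGAA, core forms of the TCF and LEF site, on both strands. RefSeq windows were matched for 6 of the 10 members; those of Dkk3, Sfrp1, Lgr5 and Wnt5a were not used here. Neither motif occurs before the annotated start of Dkk2, Sfrp2, Lgr4, Lgr6, Axin2 or the longest and the middle Wnt5b transcript span, and 1 CTTTGAT begins at -71 from the start of the shortest Wnt5b transcript span. At least 1 of them is found in 7.48% of all windows of this length, CTTTGAT in 3.21% and CTTTGAA in 4.46%. Axin2 had 24 CG pairs and Lgr4 10.

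The genes whose profile was most like that of a member, by the root mean square difference of centred log2 CPM over the 6 libraries, were looked up among 10300 genes (mean log2 CPM 3 or more). The gene nearest to Sfrp2 was Sfrp1, at a difference of 1.06, followed by Cemip (1.11), Abat (1.12) and Smpd3 (1.15). Abat had 10.4 and 17.0 CPM for WT, 0.541 and 0.955 for line 1, and 61.5 and 46.7 for line 2. For Dkk2 they were the protocadherin Dchs1 (0.884), Lgr6 itself (1.02), the polarity protein gene Patj (1.22) and the link protein gene Hapln4 (1.39). Those nearest to Lgr6 were Hapln4 (0.685), Patj (0.757), the imprinted Nnat (0.846) and Hoxd9 (0.937). These genes lie on several chromosomes, and the profiles share their libraries and depth. The members were picked with results on these libraries known, so the nearness of 1 member to another carries no test.

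The other genes of the pathway were counted over lists of 105 genes, of which 73 had enough counts. In line 1, 12 of the 73 fell and 4 rose, 21.9% against 14.3% of all genes tested by edgeR with Benjamini-Hochberg adjustment over all genes. The median log2 fold change of the 73 was -0.21, against 0.01 over all genes. In line 2, 1 fell and 3 rose, 5.48% against 3.58%, with a median of -0.03. With replicate number as a block, 28 fell and 10 rose in line 1, 52.1% of the 73 against 32.4% of all genes in that fit. In line 2, 10 fell and 8 rose with the block, 24.7% against 12.1%. Leaving out either WT library lowered the count of calls in line 1, over all genes as well as over these lists. The same held in line 2 when any WT or line 2 library was left out. DESeq2 called 5 in line 2, and 581 over all genes. An unadjusted p under 0.05 was found for 17 in line 2. The share of all genes at that threshold was not counted, so nothing is read from such counts here or below.

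Rspo2 and Rspo3, which encode ligands of the LGR receptors, fell in line 1. Rspo2 had 224.5 and 386.5 counts for WT, 17.5 and 15.5 for line 1 and 366.5 and 479.5 for line 2. Line 1 was far below the other groups, and Rspo2 fell by 4.19 on the log2 scale (SE 0.348, adjusted p = 0.00128). In line 2 it stood at 0.39 (SE 0.264, adjusted p = 0.625). Rspo3 averaged 59.6 ± 13.7 CPM for WT, 17.3 ± 0.0237 for line 1 and 30.2 ± 0.449 for line 2 (SD, n = 2). It fell by 1.78 in line 1 (SE 0.207, adjusted p = 0.00355) and stood at -0.98 in line 2 (adjusted p = 0.0575, and 0.0105 with the replicate block). Both calls in line 1 were kept when any single library was left out. Of the ubiquitin ligases that R-spondins remove, Znrf3 was at -0.21 in line 1 and -0.01 in line 2 (adjusted p = 0.562 and 0.996), and Rnf43 was too low to test.

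Among 15 measured Wnt receptors 5 fell in line 1 and 0 rose, 33.3% against 14.3% of all genes (7.55% lower, 6.75% higher), with a list median of -0.56. With the block 8 fell and 2 rose, 66.7% against 32.4% of all genes. Ror1, a receptor of Wnt5a, averaged 18.5 ± 1.42 CPM for WT, 1.76 ± 0.948 for line 1 and 30.9 ± 2.59 for line 2 (SD, n = 2). It fell by 3.50 in line 1 (SE 0.355, adjusted p = 0.00228), where Wnt5a RNA was highest. Ror2, the other ROR gene, had a higher level and went the other way, from 76.85 ± 24.95 CPM in WT to 128.1 ± 45.11 in line 1. Its log2 fold change there was 0.74 (SE 0.320, adjusted p = 0.198, and 0.00385 with the block). Fzd4 fell by 1.75 (SE 0.244, adjusted p = 0.00679) from 30.7 ± 4.77 to 9.30 ± 2.15 CPM. The calls on Ror1 and Fzd4 were kept without any single library. Fzd3 (-1.31), Fzd6 (-1.17) and the co-receptor Lrp6 (-0.57) also fell, and each of these calls was lost when either WT library was left out (adjusted p = 0.0802 to 0.186). Fzd3 and Lrp6 also lost theirs without line 2 replicate 1 or 2, and Fzd6 without line 2 replicate 2 (adjusted p = 0.0519 to 0.0843). In a fit of WT and line 1 alone the adjusted p was 0.0695 for Fzd3 and 0.0729 for Lrp6. In line 2 edgeR called 0 of the 15, against 3.58% of all genes, at a list median of -0.06. With the block 4 were called there, 26.7% against 12.1% of all genes. DESeq2 called 0, and 3 had an unadjusted p under 0.05. The Frizzled gene with the highest level per kb in WT and line 2 was Fzd2, at 96.6 ± 5.37 and 85.6 ± 2.74 CPM per kb. In line 1 it was Fzd1, at 78.2 ± 24.2 CPM per kb. Fzd1 stood at 0.80 there (adjusted p = 0.0776, and 0.00333 with the block), and with Ror2 it made up the 2 that rose with the block.

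Other ligands and antagonists were mostly low, with 3 of 17 ligands and 3 of 14 antagonists measured. Wnt4 rose in line 2, from 4.0 and 5.0 counts in WT to 21.5 and 44.0 (log2 fold change 2.68, SE 0.384, adjusted p = 0.0233), and had 4.5 and 6.0 counts in line 1. The call on Wnt4 was lost without any 1 of the WT or line 2 libraries (adjusted p = 0.133 to 0.219) and was not made by DESeq2 (adjusted p = 0.0584). Sfrp4, the relative of Sfrp1 and Sfrp2, had 21.0 and 28.0 counts for WT, 2.5 and 4.5 for line 1 and 185.0 and 124.5 for line 2. It rose by 2.66 in line 2 (SE 0.487, adjusted p = 0.0442; adjusted p = 0.209, 0.25 and 0.137 without WT replicate 1, WT replicate 2 and line 2 replicate 1). Its log2 fold change lay between 1.85 and 3.20 in fits without 1 library. In line 1 Sfrp4 stood at -2.70 (SE 0.708, adjusted p = 0.055, and 0.0101 with the block, which makes it the 1 antagonist of 3 that fell there in that fit). Notum, a secreted enzyme that inactivates Wnt ligands, rose in line 1 from 2.5 and 3.5 to 9.5 and 20 counts (1.95, SE 0.424, adjusted p = 0.0304), a call lost in every fit that left out a library (adjusted p = 0.0508 to 0.255). The Notum call was also lost by DESeq2 (adjusted p = 0.29) and in a fit of WT and line 1 alone (adjusted p = 0.0545). Wls, which carries all Wnt ligands out of the cell, averaged 193 ± 5.58 CPM for WT, 172 ± 18.8 for line 1 and 194 ± 9.49 for line 2, and was not called.

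The genes acting inside the cell were counted as a cytoplasmic and a nuclear list. Of 15 measured cytoplasmic genes edgeR called 0 in either line, against 14.3% of all genes in line 1 and 3.58% in line 2. With the block 3 and 1 were called, 20% and 6.67%, against 32.4% and 12.1% of all genes. DESeq2 called 1 and 0, and 3 and 2 had an unadjusted p under 0.05. Ctnnb1, which encodes β-catenin, averaged 434 ± 54.2 CPM for WT, 382 ± 54.4 for line 1 and 398 ± 48.6 for line 2. Of 13 nuclear genes edgeR called 1 in line 1, 7.69% against 14.3% of all genes. It was Pygo1, a co-activator that works with β-catenin, which fell from 13.9 ± 2.81 to 1.02 ± 0.473 CPM (-3.88, SE 0.412, adjusted p = 0.00261). In line 2 Pygo1 was at 14.8 ± 3.06 CPM. With the block 8 nuclear genes fell and 1 rose in line 1, 69.2% against 32.4% of all genes. In line 2 edgeR called 0 of the 13, against 3.58% of all genes. With the block 3 fell and 1 rose there, 30.8% against 12.1% of all genes. DESeq2 called 0, and 3 had an unadjusted p under 0.05.

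Of 9 measured target and feedback genes, 1 rose and 1 fell in each line, 22.2% against 14.3% of all genes in line 1 and 3.58% in line 2. With the block 2 rose and 3 fell in line 1 (55.6% against 32.4%), and 1 rose and 2 fell in line 2 (33.3% against 12.1%). Wisp1 fell in line 1 from 424 ± 6.13 to 184 ± 0.214 CPM (-1.21, SE 0.111, adjusted p = 0.00173), a call kept without any single library. Dact1, an intracellular regulator of the pathway, rose by 1.56 (SE 0.249, adjusted p = 0.0108, and 0.0648 without WT replicate 2). In line 2 Wisp2 rose from 53.8 ± 2.87 to 155 ± 9.61 CPM (1.53, SE 0.130, adjusted p = 0.00661). Nkd2, a feedback inhibitor, fell there by 2.26 (SE 0.356, adjusted p = 0.0299), from 16.7 ± 1.42 to 3.33 ± 1.28 CPM. Both calls of line 2 were lost without any 1 of the WT or line 2 libraries. Over fits without 1 library the log2 fold change lay between 1.46 and 1.59 for Wisp2 and between -2.77 and -1.97 for Nkd2. With the block the adjusted p was 0.000755 for Wisp2 and 0.00524 for Nkd2. Ccnd1, which encodes cyclin D1, had 257 ± 59.1 CPM for WT, 182 ± 42.0 for line 1 and 104 ± 44.5 for line 2 (SD, n = 2). Its libraries did not overlap with WT in either line, at log2 fold changes of -0.49 (adjusted p = 0.404, and 0.0185 with the block) and -1.29 (adjusted p = 0.116, and 0.00162 with the block). DESeq2 called Ccnd1 in line 2 (adjusted p = 0.00172). Myc, a general target, was at -0.15 and -0.17 and was not called.

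The planar polarity branch, which Wnt5a feeds, had 3 genes that fell and 2 that rose of 10 in line 1, against 7.55% lower and 6.75% higher over all genes. With the block 4 fell and 3 rose, against 32.4% of all genes called. Daam2, a formin, fell from 83.1 ± 1.15 to 8.34 ± 4.65 CPM (-3.42, SE 0.331, adjusted p = 0.00203), while its relative Daam1 rose by 0.88 (SE 0.136, adjusted p = 0.00983; 0.0686 and 0.0947 without WT replicate 1 and 2). Daam2 stood at 143 ± 6.45 CPM in line 2 (0.78, adjusted p = 0.248, and 0.0327 with the block). Celsr2, a cadherin of this branch, had 52.5 counts over the WT libraries and 2.0 over those of line 1, a log2 ratio of -4.83 (95% counting interval -7.91 to -2.90). Vangl1 rose by 0.61 and Vangl2 fell by 0.53 (adjusted p = 0.0151 and 0.03), and both calls were lost when either WT library was left out (adjusted p = 0.112 to 0.233). Vangl1 lost its call without line 2 replicate 1 as well, and Vangl2 without line 2 replicate 1 or 2 (adjusted p = 0.0564 to 0.109). With WT and line 1 alone the adjusted p was 0.0504 for Vangl1 and 0.0999 for Vangl2, and Vangl2 was not called by DESeq2 (0.0591) or without the filter on low counts (0.0526). Celsr2 was not called without WT replicate 1 or line 1 replicate 2 (adjusted p = 0.0927 and 0.11). In line 2 edgeR called 0 of the 10, against 3.58% of all genes. With the block 3 were called there, 30% against 12.1% of all genes. DESeq2 called 0, and 3 had an unadjusted p under 0.05.

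**Figure D4:**
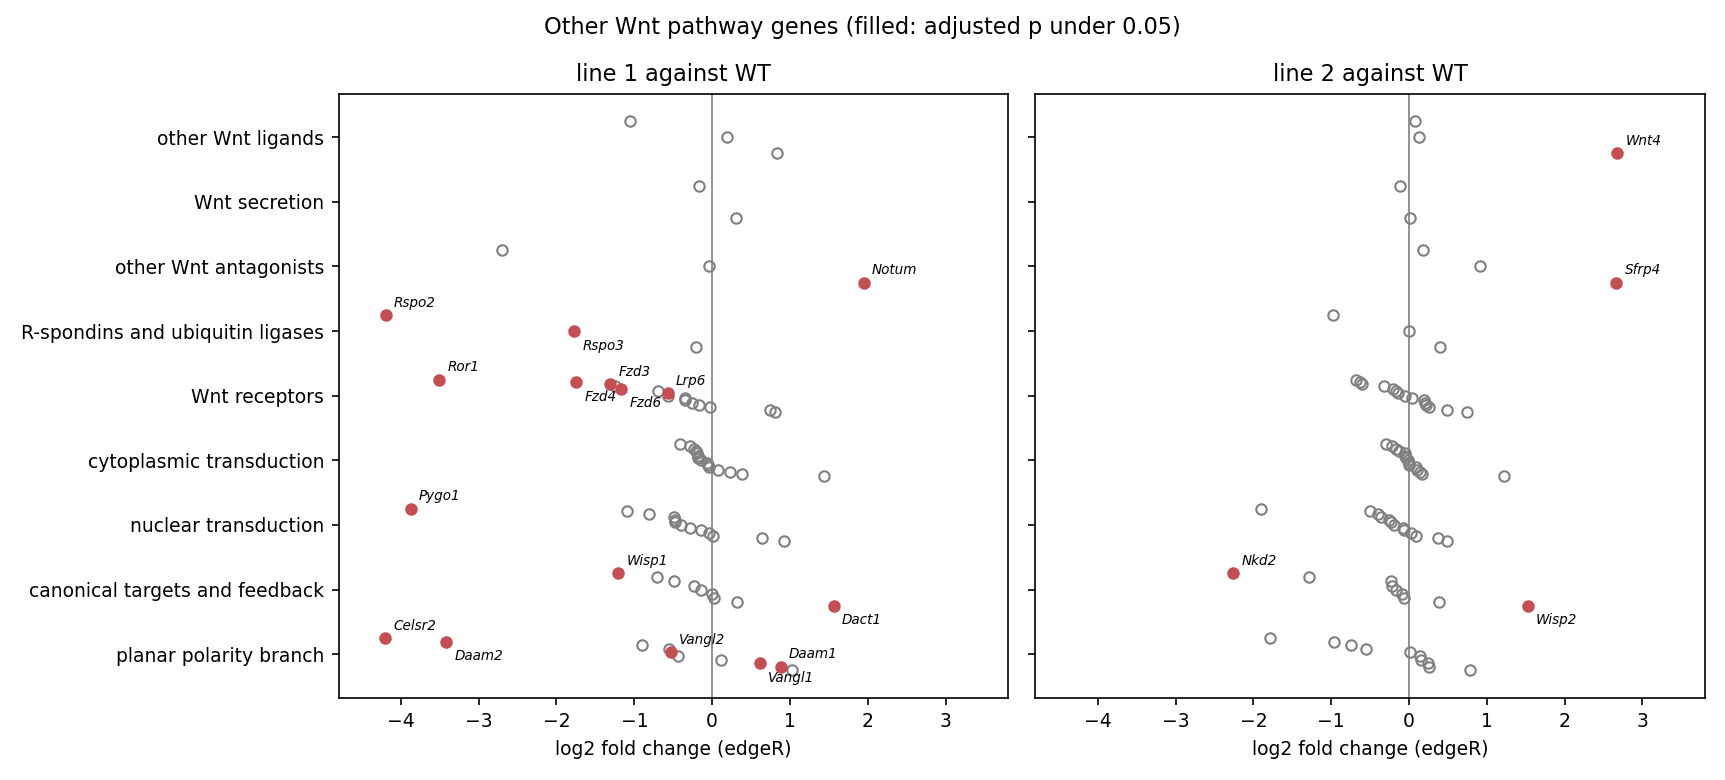
Log2 fold change of the 73 other measured pathway genes by list, line 1 on the left and line 2 on the right; filled points passed an adjusted p under 0.05 and are named. In line 1 Rspo2, Pygo1, Ror1, Daam2 and Celsr2 lie below -3, and in line 2 the named points are Wnt4, Sfrp4, Nkd2 and Wisp2.

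Set against each other, the lines differed at 15 of the 73 pathway genes, 12 higher and 3 lower in line 2, or 20.5% against 12.6% of all genes. With the block 22 were higher and 11 lower, 45.2% against 27.2% of all genes. Rspo2 (4.59), Ror1 (4.25), Daam2 (4.20), Pygo1 (3.97), Fzd4 (1.97), Wisp1 (1.12), Wisp2 (1.76) and Sfrp4 (5.36) were higher in line 2 and kept this call in each fit without 1 library. Leaving out replicate 1 or replicate 2 of line 2 lowered the count of calls, over all genes as well as over these lists. Nkd2 (-2.26), Dact1 (-1.18) and Daam1 (-0.64) were lower in line 2.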

How the data were processed

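RNA of 6 libraries was analysed, 2 per group, out of 31 samples in the series. Exon values are expected counts per RefSeq transcript on mm10 that the authors made with HOMER without normalization, per the file headers, in steps of 0.5. The submitters' processing notes also name Trim Galore 0.4.1, TopHat2, SAMtools and bedtools 2.25.0. Whether counting used strand was not stated in the labels or headers. ATAC-seq, ChIP-seq and X-linked lists were not used here, since the members are autosomal.

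The transcript with the highest total stood for each of 24470 symbols, and values were rounded with 0.5 upwards. The design had assumed whole counts. filterByExpr left 12910 genes for edgeR 4.0.16 (quasi-likelihood test, TMM scaling, R 4.3.3), with a mean per group and Benjamini-Hochberg adjusted p under 0.05. SEs are the log2 fold change over the root of the F statistic. The fit and DESeq2 1.42.0 were checked on simulated counts. Differences between replicates 1 and 2 correlated between groups (Pearson 0.54, 0.594 and 0.529 across genes), so same-numbered libraries deviated together. The labels and headers name no batch, replicate 1 had fewer counts in every group, and the source of the pairing was not tested. Calls, SEs and fits without 1 library leave this pairing out unless the block is named. Blocked counts are given beside the counts per list where they differ by over 1.5 times. The 95% counting interval covers counting error only.

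Members and lists were chosen with earlier results of these data known. Named genes were the 10 members, Xist, up to 4 called genes per list and comparison by adjusted p, the gene with the highest level of a list, and the 4 nearest profiles of Dkk2, Sfrp2 and Lgr6. Znrf3, Rnf43, Ccnd1, Ror2, the family members Frzb, Sfrp5, Dkk1 and Dkk4, and the markers named beside their lists fall outside this rule. They were chosen after their values were seen. Protein identities were planned and not run.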

Additional observations from a re-analysis of the deposited data

Results flagged for a closer look

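Line 1 and line 2 differed from each other, in the test of that difference by edgeR with adjusted p under 0.05, at 15 pathway genes outside the 10 members. In line 2 minus line 1, log2 differences were 5.36 for Sfrp4, 4.59 for Rspo2, 4.25 for Ror1, 4.20 for Daam2, 3.97 for Pygo1, 2.48 for Wnt4, 1.97 for Fzd4, 1.76 for Wisp2, 1.36 for Fzd3, 1.12 for Wisp1, 0.88 for Fzd8 and 0.54 for Vangl2. They were -2.26 for Nkd2, -1.18 for Dact1 and -0.64 for Daam1. Wnt4, Fzd3, Fzd8, Vangl2, Nkd2, Dact1 and Daam1 lost the call in at least 1 fit without a library. Groups of 2 libraries are too small to look for a library that stands apart.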

How the results depend on the processing

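Counts of calls moved most with the replicate block and with single libraries, and the cause was not tested. With the replicate block they were 4182 in line 1, 1568 in line 2 and 3506 between the lines over all genes, and 38, 18 and 33 over the pathway lists. Without the filter on low counts, 948 genes and 11 pathway genes were called in line 2 and 25 pathway genes in line 1. With the 2 compared groups alone, 790 genes and 8 pathway genes were called in line 2. Over fits without 1 library the counts ranged from 718 to 2361 in line 1, from 23 to 783 in line 2 and from 600 to 1991 between the lines, and for pathway genes from 8 to 22, from 0 to 9 and from 8 to 18. Log2 fold changes of the members kept their sign under the alternatives run, except Wnt5a in line 2 (-0.15 at the lowest) and Lgr5 between the lines (0.31, and -1.99 without line 2 replicate 2). They moved by less than the spread between replicates in 96 of 104, 98 of 104 and 95 of 103 values, and by more in 8, 6 and 8. Of 21 named pathway genes, calls were lost in 37 of 272 fits in line 1, 16 of 272 in line 2 and 27 of 272 between the lines. Calls were gained in 10, 13 and 9, and none reversed. The totals of 272 include genes that had no call to lose. In line 2 only 4 pathway genes had a call, so the 16 losses there fall on those 4. Without division by transcript length, 4 of 27 family shares moved by more than 1 SD. Depth limits Axin2, Wnt5b and Lgr5.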
